A study of Mus musculus with 12 samples.

Results

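The 44 genes described here are the mitochondrial genome as the count table of this lung study lists it, together with a stretch of chromosome 1 that holds a copy of part of it. They were taken from the 56748 rows of the table by 2 criteria: 37 rows whose name starts with mt- on chromosome MT, and the 7 rows that lie in a window of 12000 bases of chromosome 1. The 37 mitochondrial rows are 13 protein coding genes, 2 ribosomal RNAs and 22 transfer RNAs. The members were selected on the counts of mt-Nd3, on chromosome MT, and Gm28438, on chromosome 1, which differed between each knockout and the wild type in earlier results from these files, so the values of those 2 genes against the wild type are given below as a description, and nothing is read from a test of them.

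The study sequenced RNA from whole lungs of mice that all carried MMTV-PyMT, in which a mammary tumour virus promoter drives the polyoma middle T oncogene, and MMTV-Cre, and its labels name lung metastasis. The 3 groups, with 4 libraries each, were S1pr1 KO (MMTV-Cre;S1pr1fl/fl;MMTV-PyMT), C3 KO (MMTV-Cre;C3Tdt:MMTV-PyMT) and WT (MMTV-Cre;MMTV-PyMT), all taken at 4.5 months. S1pr1 encodes a receptor for sphingosine 1-phosphate and C3 a central protein of complement. The MMTV promoter is known for driving expression mainly in mammary epithelium, and in which lung cells Cre acted was not tested. Levels of S1pr1 and C3 in these lungs are given below. The strain label of the WT samples reads only MMTV-PyMT, and no label gives a genetic background or a maternal line for any group. Nothing in the labels ties samples to separate animals, so a p-value here reflects spread among samples that may be technical.

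Mitochondrial DNA encodes core subunits of the respiratory complexes I, III and IV and of ATP synthase, besides the ribosomal and transfer RNAs used to translate them inside the organelle. All other subunits of these complexes, and the proteins that copy and transcribe mitochondrial DNA, are encoded in the nucleus. Nuclear chromosomes also hold copies of mitochondrial sequence, and a read from a stretch that is identical in both places can be placed in either.

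All 7 chromosome 1 rows matched 1 mitochondrial gene each, in the order and with the spacing of the mitochondrial genome. All 44 genes matched a GENCODE M21 transcript whose length equalled the deposited gene length, and the sequences below are from those transcripts (GRCm38), while coordinates are those of the deposited table (GRCm39). The copies are Gm29216 of mt-Co1, Gm28661 of mt-Co2, Gm10925 of mt-Atp6, Gm28437 of mt-Co3, Gm28438 of mt-Nd3, Gm10222 of mt-Nd4l and Gm28439 of mt-Nd4, all on the minus strand. Together they mirror chrMT:6381-11042, which is 4662 bases, in chr1:24650616-24655278, which is 4663 bases. Mitochondrial and chromosome 1 coordinates of aligned bases added up to 24661659 in the first 5 pairs and to 24661658 in the last 2. The extra base of chromosome 1 lies between the starts of mt-Nd3 and mt-Nd4l, which are 418 bases apart on MT and 419 on chromosome 1. The transfer RNA gene mt-Tr lies in that interval.

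Of 4149 aligned bases, 7 differed. Gm28661, Gm10925, Gm28437, Gm10222 and Gm28439 were identical to their mitochondrial counterparts over their whole lengths of 681, 678, 783, 294 and 876 bases. Gm28438 matched mt-Nd3 in 344 of 345 bases and differed by T3C, counted from 1 at the first base of mt-Nd3, which is position 9461 of MT and position 24652198 of chromosome 1. It is the last base of the first codon. The 342 bases that follow it were identical. Gm29216 differed from mt-Co1 by T1056A, C1057T, A1059G, A1060G, C1062A and A1066T, all within its first 13 bases, and was identical over the other 479.

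The first 150 bases of mt-Nd3 (chrMT:9459-9608, plus strand) and of Gm28438 (chr1:24652051-24652200, minus strand) are shown because these are the 2 rows whose levels moved in opposite directions, with the base that differs in capitals.
mt-Nd3: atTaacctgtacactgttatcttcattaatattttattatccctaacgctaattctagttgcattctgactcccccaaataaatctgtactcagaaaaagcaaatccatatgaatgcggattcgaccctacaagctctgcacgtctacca
Gm28438: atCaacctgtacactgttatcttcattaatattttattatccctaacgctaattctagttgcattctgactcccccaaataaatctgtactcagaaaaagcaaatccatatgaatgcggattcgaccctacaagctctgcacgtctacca
The start of the copied part of mt-Co1 (chrMT:6381-6410, bases 1054 to 1083 of the gene) and of Gm29216 (chr1:24655249-24655278, minus strand) is shown because it holds the other 6 differences, again in capitals.
mt-Co1: ggTCtAAcCggaAttgttttatccaactca
Gm29216: ggATtGGcAggaTttgttttatccaactca
The 2 transfer RNA genes on either side of mt-Nd3, mt-Tg (chrMT:9391-9458) and mt-Tr (chrMT:9808-9875), are shown because their reads were counted in WT libraries only. The table has no chromosome 1 row for either.
mt-Tg: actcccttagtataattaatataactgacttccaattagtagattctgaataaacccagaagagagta
mt-Tr: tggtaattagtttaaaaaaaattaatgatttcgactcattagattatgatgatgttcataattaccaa

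Total counts per library ranged from 32274797 to 53063470. All 8 lung defining genes looked at, surfactant proteins, alveolar and endothelial genes among them, were detected in every library, with a summed level of 35120 to 52679 CPM (counts relative to the scaled library total). C3 stood at 475, 465, 601 and 1416 CPM in the C3 KO libraries, against 787 to 1025 CPM in WT, so the library labelled C3 KO 4 was above every WT library. S1pr1 stood at 132, 366, 142 and 154 CPM in the S1pr1 KO libraries, against 295 to 491 CPM in WT, so the library labelled S1pr1 KO 2 lay within the WT range. The folds of the mt-Nd3 pair, the mitochondrial share and the gene lists are given below with and without both libraries.

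mt-Nd3, a core subunit of complex I, was low in both knockouts. Its levels were 0.757, 0.869, 0.531 and 0.564 CPM in the S1pr1 KO libraries, 1.71, 0.644, 0.361 and 0.896 CPM in the C3 KO libraries, and 5.36, 5.84, 5.94 and 7.49 CPM in the WT libraries. Every knockout library lay below every WT library, and the highest knockout value, in C3 KO 1, was 1.71 CPM. The counts behind these levels were 19 to 40 reads in S1pr1 KO, 13 to 59 in C3 KO and 203 to 273 in WT. The log2 fold change was -3.16 (SE 0.37) in S1pr1 KO against WT and -2.77 (SE 0.36) in C3 KO against WT.

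Gm28438, its chromosome 1 copy (ENSMUSG00000101939), showed the mirror image. Its levels were 9.52, 6.38, 5.47 and 4.27 CPM in the S1pr1 KO libraries, 8.01, 8.11, 7.39 and 11.4 CPM in the C3 KO libraries, and 0.679, 0.603, 0.615 and 0.905 CPM in the WT libraries. Every knockout library lay above every WT library. The log2 fold change was 3.19 (SE 0.27) in S1pr1 KO against WT and 3.63 (SE 0.27) in C3 KO against WT. With the libraries labelled S1pr1 KO 2 and C3 KO 4 both left out, it was 3.20 and 3.48 for Gm28438 and -3.30 and -2.76 for mt-Nd3. Over the 12 libraries the levels of mt-Nd3 and Gm28438 on the log2 scale had a Pearson r of -0.89, which describes 3 groups of libraries and is not a test.

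Added together, the 2 rows spanned 4.84 to 12.3 CPM over the 12 libraries, where mt-Nd3 alone spanned 0.361 to 7.49 CPM and Gm28438 alone 0.603 to 11.4 CPM. Their sum was 10.3, 7.25, 6.0 and 4.84 CPM in S1pr1 KO (7.09 ± 2.34, SD, n = 4), 9.72, 8.75, 7.75 and 12.3 CPM in C3 KO (9.63 ± 1.96) and 6.04, 6.45, 6.56 and 8.39 CPM in WT (6.86 ± 1.05). The S1pr1 KO sums lay on both sides of the WT range, and the C3 KO sums overlapped it in 1 library. The mean of the log2 sums of mt-Nd3 and Gm28438 differed by 0.00 between S1pr1 KO and WT and was 0.48 higher in C3 KO than in WT, and without S1pr1 KO 2 and C3 KO 4 these differences were -0.03 and 0.35. Gm28438 held 92.6, 88.0, 91.2 and 88.3% of the counts of the pair in S1pr1 KO, 82.4, 92.6, 95.3 and 92.7% in C3 KO, and 11.2, 9.36, 9.38 and 10.8% in WT.

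**Figure D1:**
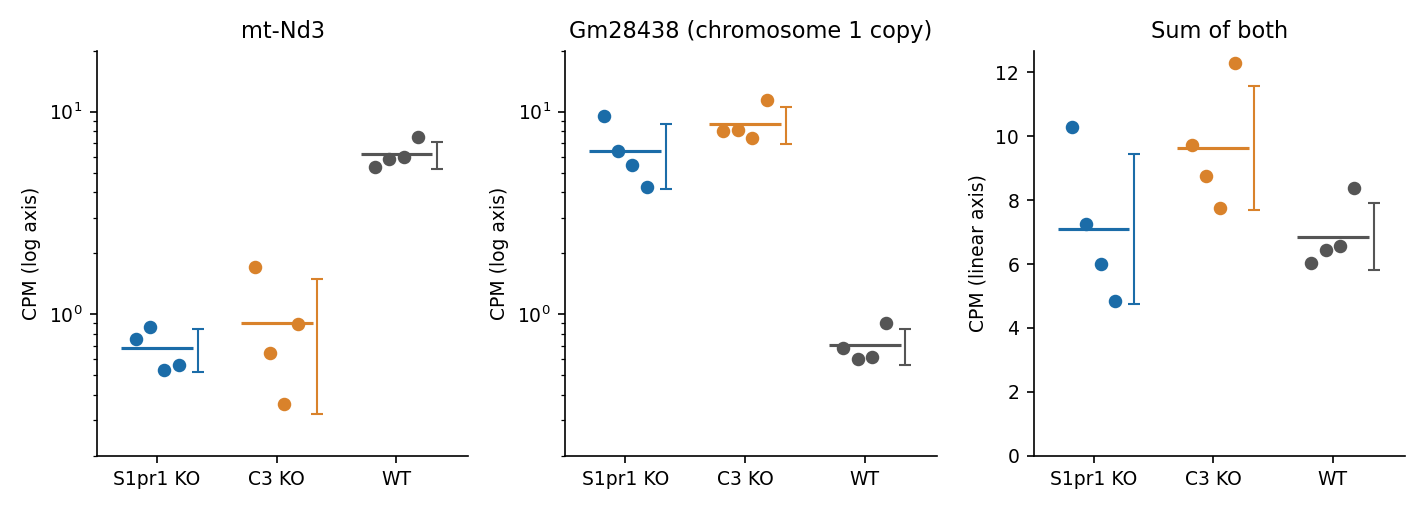
Level in each library of mt-Nd3, of its chromosome 1 copy Gm28438 and of their sum, in CPM. The first 2 panels have log axes and the third a linear axis from 0; points are libraries, horizontal lines group means and vertical bars SD (n = 4). Knockout and WT libraries do not overlap for either row, with mt-Nd3 at 0.361 to 1.71 CPM in the 8 knockout libraries and 5.36 to 7.49 CPM in WT, while the sums overlap.

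Between the 2 knockouts, neither row passed the test. The log2 fold change in S1pr1 KO against C3 KO was -0.39 (SE 0.37) for mt-Nd3 and -0.44 (SE 0.23) for Gm28438, with adjusted p of 0.712 and 0.478 (edgeR quasi-likelihood test, Benjamini-Hochberg adjustment over the 20229 genes tested, threshold 0.05). The direction for mt-Nd3 turned to 0.10 without C3 KO 1. The counts cannot show which base each library carries at position 9461 of MT, and its part in these levels was not tested.

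For the other 6 pairs the shares are given side by side, with no test of a difference between pairs. Gm28661 held 30.7 to 35.5% of the mt-Co2 pair in S1pr1 KO, 31.6 to 34.2% in C3 KO and 34.4 to 37.9% in WT. Gm10925 held 61.2 to 64.9% of the mt-Atp6 pair in S1pr1 KO, 51.5 to 61.7% in C3 KO and 58.2 to 61.9% in WT. Gm28437 held 38.3 to 58.5% of the mt-Co3 pair in S1pr1 KO, 40.7 to 58.7% in C3 KO and 40.9 to 45.3% in WT. All 3 of these copies are identical to the mitochondrial gene, and their shares overlapped between groups or, for Gm28661 in C3 KO, lay just under the WT range.

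Gm10222, also identical to its counterpart mt-Nd4l and next to mt-Nd3 on the map, had shares of 40.7 to 59.0% in S1pr1 KO, 31.7 to 58.7% in C3 KO and 20 to 47.7% in WT. The ranges overlapped. For the 2 pairs in which only part of the mitochondrial gene is copied, the chromosome 1 row held little: 0.0577 to 0.135% for Gm29216 and 0.552 to 0.814% for Gm28439 over the 12 libraries.

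**Figure D2:**
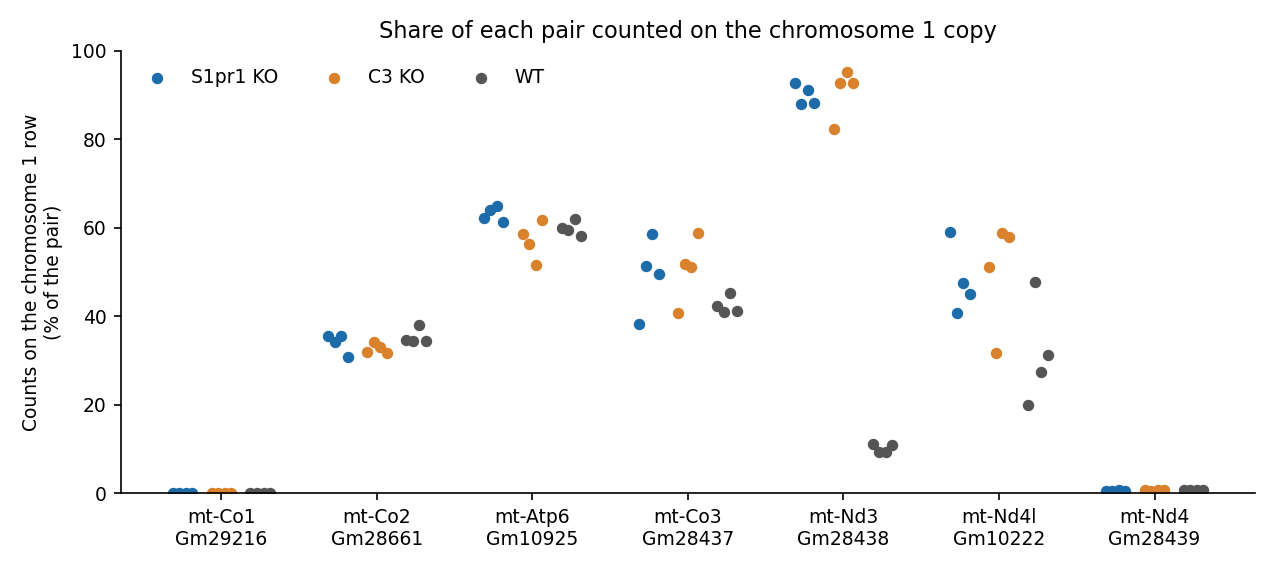
Share of the summed counts of each mitochondrial gene and its chromosome 1 copy that was counted on the copy, in percent, for the 7 pairs in map order; each point is a library. The mt-Nd3 pair stands at 82.4 to 95.3% in the knockout libraries and 9.36 to 11.2% in WT, while the S1pr1 KO and WT ranges overlap in each of the other pairs.

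Within the copied stretch, mitochondrial genes had low levels per length in all 3 groups. The 6 protein coding genes wholly inside it, mt-Co2, mt-Atp8, mt-Atp6, mt-Co3, mt-Nd3 and mt-Nd4l, stood at 0.88 to 38.8 FPKM (counts relative to gene length and library total, from the deposited table) over the 12 libraries. The 5 protein coding genes wholly outside, mt-Nd1, mt-Nd2, mt-Nd5, mt-Nd6 and mt-Cytb, stood at 742 to 2794 FPKM. mt-Co1, with 31.8% of its length inside, and mt-Nd4, with 63.6% inside, stood at 820 to 4992 FPKM. No gene wholly inside reached the lowest value of any gene outside or partly inside.

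By group, mt-Co2, a copper-binding subunit of complex IV, averaged 21.9 ± 2.76 FPKM in S1pr1 KO, 23.9 ± 9.95 in C3 KO and 30.4 ± 5.88 in WT (SD, n = 4 each). mt-Co1, the catalytic subunit of the same complex, averaged 4384 ± 455 FPKM in S1pr1 KO, 3733 ± 222 in C3 KO and 3511 ± 170.3 in WT. mt-Cytb, the mitochondrial subunit of complex III, averaged 2587 ± 179, 2299.5 ± 135 and 2278 ± 68.7 FPKM in the same order of groups. The chromosome 1 copies had levels per length like those of the mitochondrial genes inside the stretch, at medians over the 12 libraries of 9.31 FPKM for Gm28439 to 23.6 FPKM for Gm10925. How reads that match several places were counted is not given in the sources used here, and its part in these levels was not tested.

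**Figure D3:**
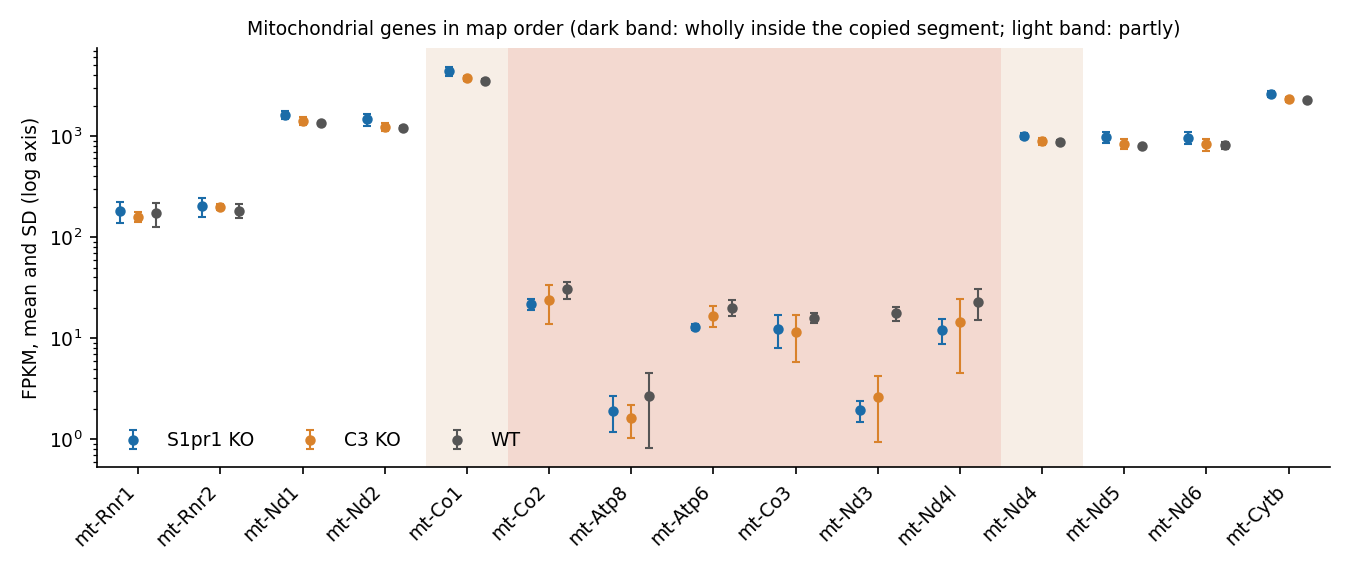
Mean FPKM with SD (n = 4) of the 2 ribosomal RNAs and 13 protein coding genes of mitochondrial DNA, in map order, on a log axis. Genes in the dark band lie wholly inside the stretch copied on chromosome 1 and reach at most 38.8 FPKM in any library, while the protein coding genes outside it or partly inside it (light bands) are at 742 FPKM or more.

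The 5 transfer RNA genes inside the stretch were almost uncounted. mt-Td and mt-Tk had 0 reads in all 12 libraries and mt-Ts1 had 1. mt-Tg and mt-Tr, which flank mt-Nd3, had 0 reads in each of the 8 knockout libraries, against 4, 8, 2 and 5 reads for mt-Tg and 2, 3, 4 and 5 reads for mt-Tr in the WT libraries. A count of 0 allows up to 0.0568 to 0.0891 CPM in a knockout library, taking 3 reads as the limit, for counting error only. The WT levels were 0.0586 to 0.219 CPM for mt-Tg and 0.0468 to 0.137 CPM for mt-Tr, so some WT values lie under that limit. Both rows were below the filter on low counts and had no test in the main edgeR fit. In edgeR without that filter, neither passed in either knockout against WT. Reads confined to 1 group also occurred outside the stretch. mt-Tv had 1, 1, 1 and 3 reads in the C3 KO libraries and 0 in every other library.

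Of the 44 genes, 31 passed the filter on low counts and 13 transfer RNA rows did not. mt-Nd3 and Gm28438, whose values against WT chose the members, are left out of the counts in the rest of this paragraph. Of the other 29, none passed in edgeR in any of the 3 comparisons, beside 1.35% of all genes tested in S1pr1 KO against WT, 0.00989% in C3 KO against WT and 0.0% between the knockouts. The share in C3 KO against WT is made up of 2 genes, mt-Nd3 and Gm28438 themselves, so no other gene passed there. With an unadjusted p under 0.05 there were 12 in S1pr1 KO against WT, 2 in C3 KO against WT and 8 between the knockouts, beside 18%, 11% and 12% of all genes tested. DESeq2 called 4, 0 and 0 of the 29 in the same order of comparisons, beside 6.32%, 0.85% and 1.57% of all genes.

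**Figure D4:**
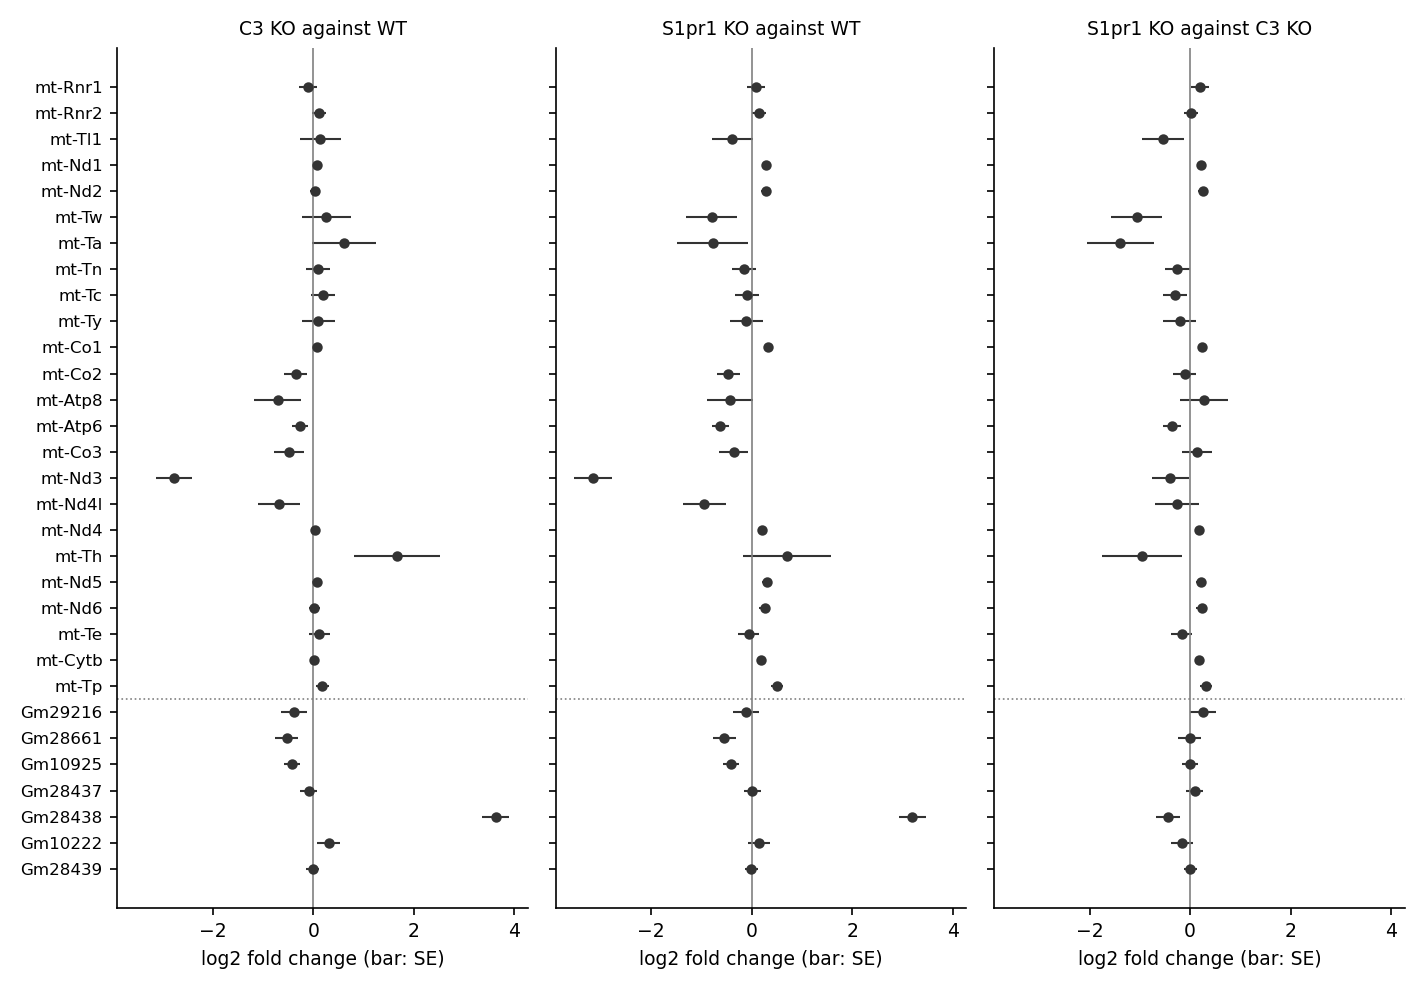
Log2 fold change with its SE for the 31 genes tested, mitochondrial genes in map order above the dotted line and chromosome 1 rows below it, in 3 comparisons (the first group named over the second). mt-Nd3 lies at -2.77 and -3.16 and Gm28438 at 3.63 and 3.19 against WT; in S1pr1 KO against WT the protein coding genes outside or partly inside the copied stretch lie between 0.19 and 0.32.

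In S1pr1 KO lungs, mitochondrial reads made up more of the library. They were 1.75, 1.85, 1.78 and 1.56% of all counts in S1pr1 KO (1.74 ± 0.123, SD, n = 4), 1.45, 1.62, 1.37 and 1.44% in C3 KO (1.47 ± 0.105) and 1.37, 1.39, 1.39 and 1.48% in WT (1.41 ± 0.0505). All 4 S1pr1 KO libraries lay above all 4 WT libraries, whereas S1pr1 KO and C3 KO overlapped. The mean share was 0.328 percentage points higher in S1pr1 KO than in WT, 0.0634 points higher in C3 KO than in WT and 0.265 points higher in S1pr1 KO than in C3 KO. With the library labelled S1pr1 KO 2 left out, S1pr1 KO remained 0.289 points above WT. The difference of C3 KO from WT rested on single libraries, at 0.014 points without C3 KO 2 and 0.096 points without C3 KO 3. In whole tissue, fewer cells of a type and less RNA per cell cannot be told apart.

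The 7 protein coding genes outside or partly inside the stretch carried this share. They held 95.3 to 97.1% of mitochondrial counts in every library, and mt-Co1 alone 37.2 to 40.9%. All 7 had a positive fold change in S1pr1 KO against WT, of 0.19 to 0.32 with a median of 0.28, where 49.8% of all genes tested were positive with a median of 0.00. None passed in edgeR (adjusted p 0.0717 to 0.248). All 7 had an unadjusted p under 0.05, beside 18% of all genes tested. DESeq2 called mt-Co1 and mt-Nd1, beside 6.32% of all genes. Leaving out S1pr1 KO 2 and C3 KO 4 together, all 7 were positive with a median of 0.24.

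mt-Co1 stood at 6716, 7710, 6772 and 6054 CPM in S1pr1 KO, 5630, 6182, 5378 and 5911 CPM in C3 KO and 5229, 5393, 5340 and 5821 CPM in WT. Its log2 fold change in S1pr1 KO against WT was 0.32 (SE 0.08, edgeR adjusted p = 0.0717). mt-Nd1, a complex I subunit of the membrane arm, stood at 1653, 1683, 1577 and 1351 CPM in S1pr1 KO, against 1235, 1299, 1284 and 1328 CPM in WT, which is 0.28 on the log2 scale (SE 0.08, edgeR adjusted p = 0.0976). In both genes all S1pr1 KO libraries lay above all WT libraries. This was also so for mt-Nd4, mt-Cytb and mt-Tp, and for Gm28438, whose values against WT chose the members. With Gm28438 they made 6 of the 31 genes tested, beside 6.16% of all genes, and nothing is read from Gm28438 in that count. For C3 KO against WT the only rows without overlap were Gm28438, which was higher, and mt-Nd3, which was lower. Both chose the members, so nothing is read from them beside the 3.0% and 3.09% of all genes. S1pr1 KO and C3 KO overlapped in all 31, beside 6.4% of all genes that did not.

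The other complex I subunits outside the stretch had fold changes of the same size but overlapping groups. They were 0.28 (SE 0.10) for mt-Nd2, 0.30 (SE 0.10) for mt-Nd5 and 0.26 (SE 0.11) for mt-Nd6, the only protein coding gene transcribed from the other strand. mt-Nd4 had 0.21 (SE 0.07) and mt-Cytb 0.19 (SE 0.07). In C3 KO against WT the 7 genes had fold changes of 0.01 to 0.08, with adjusted p of 0.762 to 0.977. Set against C3 KO, a comparison without the WT libraries, S1pr1 KO had 0.18 to 0.25, with a median of 0.22 (0.15 without S1pr1 KO 2 and C3 KO 4) and adjusted p of 0.303 to 0.434 in edgeR.

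The ribosomal RNAs had smaller fold changes and more spread. mt-Rnr1 averaged 182 ± 42.9 FPKM in S1pr1 KO, 159.8 ± 18.8 in C3 KO and 172 ± 47.0 in WT, and mt-Rnr2 201 ± 44.3, 199 ± 12.6 and 182 ± 28.4 FPKM (SD, n = 4 each). Their log2 fold changes in S1pr1 KO against WT were 0.09 and 0.15, with adjusted p of 0.844 and 0.637 in edgeR. Both were lower per length than every protein coding gene outside the stretch.

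Among the transfer RNAs, mt-Tp, which carries proline, was the highest per length, at 206 to 361 FPKM, and had the lowest p of the 29 genes other than mt-Nd3 and Gm28438 in S1pr1 KO against WT. It stood at 23.7, 24.1, 19.9 and 17.2 CPM in S1pr1 KO, 15.5, 16.3, 16.0 and 20.2 CPM in C3 KO and 15.4, 15.6, 13.9 and 15.1 CPM in WT. The S1pr1 KO libraries lay above the WT libraries, and the log2 fold change of 0.51 (SE 0.12) had an edgeR adjusted p of 0.0551. With DESeq2 it was 0.00376. Next came mt-Tn, mt-Tc, mt-Te and mt-Ty, which like mt-Tp lie on the minus strand and averaged 6.85, 6.41, 4.27 and 1.70 CPM in S1pr1 KO, 8.18, 7.89, 4.82 and 1.98 CPM in C3 KO, and 7.70, 6.90, 4.45 and 1.85 CPM in WT. mt-Tl1 averaged 1.33 ± 0.82 CPM in S1pr1 KO, 1.96 ± 0.51 in C3 KO and 1.77 ± 0.146 in WT. All 9 transfer RNAs tested had a positive fold change in C3 KO against WT, of 0.09 to 1.66, and 2 of 9 in S1pr1 KO against WT, and none passed in edgeR. Since 9 mitochondrial rows lie on the minus strand and the strand setting of the counting is not given in the sources used here, their reads and those of the transcript opposite cannot be told apart.

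Inside the stretch, the protein coding genes other than mt-Nd3 had fold changes opposite in sign to those outside it. All 5 had negative fold changes in S1pr1 KO against WT, from -0.94 to -0.36, and in C3 KO against WT, from -0.71 to -0.26, and none passed in edgeR. These 2 comparisons share the WT libraries. mt-Atp6, a membrane subunit of ATP synthase, stood at 9.39, 9.27, 8.42 and 8.25 CPM in S1pr1 KO, 14.9, 10.9, 11.5 and 8.29 CPM in C3 KO and 12.1, 13.1, 12.2 and 17.3 CPM in WT. The S1pr1 KO libraries lay below the WT libraries and the C3 KO libraries overlapped both. The log2 fold change was -0.63 (SE 0.17, edgeR adjusted p = 0.077) in S1pr1 KO against WT, -0.26 (SE 0.16, 0.596) in C3 KO against WT and -0.36 (SE 0.17, 0.41) in S1pr1 KO against C3 KO. In S1pr1 KO against WT, DESeq2 and limma voom called mt-Atp6, beside 6.32% of all genes and 928 of 20229 genes.

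Its chromosome 1 copy Gm10925 had -0.42 (SE 0.16) in both S1pr1 KO and C3 KO against WT, with edgeR adjusted p of 0.182 and 0.381. Gm28661, the copy of mt-Co2, had -0.55 (SE 0.23) and -0.53 (SE 0.23) in the same 2 comparisons, with adjusted p of 0.233 and 0.426. In these 2 pairs gene and copy had fold changes of the same sign. In sign alone, mt-Nd3 and Gm28438 were not the only opposite pair. mt-Nd4l had -0.94 and -0.68 in S1pr1 KO and in C3 KO against WT, where Gm10222 had 0.14 (SE 0.22) and 0.30 (SE 0.22). In S1pr1 KO against WT, mt-Co3 had -0.36 where Gm28437 had 0.01 (SE 0.17). There mt-Co1 had 0.32 where Gm29216 had -0.12 (SE 0.26), and mt-Nd4 had 0.21 where Gm28439 had -0.01 (SE 0.13). In S1pr1 KO against WT the fold changes of Gm10222, Gm28437, Gm29216 and Gm28439 were smaller than their SE, so their signs are not settled. The 4 of 31 genes that were lower without overlap in S1pr1 KO against WT were mt-Atp6, mt-Nd3, Gm28661 and Gm10925, beside 5.18% of all genes. mt-Nd3, whose values against WT chose the members, is among them, and nothing is read from it in that count.

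The remaining genes of the stretch were spread widely between libraries. mt-Nd4l, a small complex I subunit, had -0.94 (SE 0.42) in S1pr1 KO against WT and -0.68 (SE 0.42) in C3 KO against WT. mt-Co3, the third mitochondrial subunit of complex IV, had -0.36 (SE 0.29) and -0.49 (SE 0.30). mt-Atp8, an accessory subunit of ATP synthase that shares part of its sequence with mt-Atp6, had -0.43 (SE 0.46) and -0.71 (SE 0.47), and without WT 4 its value in S1pr1 KO against WT turned to 0.16. Summed over the 11 mitochondrial rows wholly inside, levels were 33.7 to 43.8 CPM in S1pr1 KO, 31.5 to 63.5 CPM in C3 KO and 54.7 to 76.0 CPM in WT, and the 7 chromosome 1 rows summed to 45.4 to 60.5, 45.6 to 74.5 and 52.0 to 70.3 CPM. These sums include mt-Nd3 and Gm28438, whose values against WT chose the members. Without Gm28438 the chromosome 1 rows summed to 41.1 to 54.2, 38.2 to 66.5 and 51.4 to 69.3 CPM in the same order of groups.

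Beside the higher mitochondrial share in S1pr1 KO, markers of heart muscle, a tissue rich in mitochondria, were also higher. The summed level of 17 cardiomyocyte genes was 907, 3664, 1724 and 1297 CPM in S1pr1 KO, 944, 489, 838 and 830.4 CPM in C3 KO, and 197, 759, 571 and 755 CPM in WT. All 4 S1pr1 KO libraries lay above all 4 WT libraries, and S1pr1 KO 2 had both the highest sum and the highest mitochondrial share, while S1pr1 KO 1 was the lowest of its group in the sum but not in the share. All 17 genes had positive fold changes in S1pr1 KO against WT, with a median of 1.69, and none was at 0 in any library. Of the 17, 2 passed in edgeR and 9 in DESeq2, beside 1.35% and 6.32% of all genes. Without S1pr1 KO 2 and C3 KO 4, all 17 were positive with a median of 1.23 and none passed in edgeR, beside 2.31% of all genes. The 11 ciliated cell genes summed to 880 to 1086 CPM in S1pr1 KO, 686 to 953 CPM in C3 KO and 639.6 to 789.5 CPM in WT, with 11 of 11 positive in S1pr1 KO against WT, a median of 0.58 (0.66 without S1pr1 KO 2 and C3 KO 4) and 3 passing in edgeR, beside 1.35% of all genes (7 without both libraries, beside 2.31%). Of the 8 lung defining genes, 7 had negative fold changes in S1pr1 KO against WT, with a median of -0.22 (-0.25 without both libraries), and although 3 reached an unadjusted p under 0.05, beside 18% of all genes, no adjusted p did. Their summed level was 35120 to 47384 CPM in S1pr1 KO, 40212 to 48716 CPM in C3 KO and 40741 to 52679 CPM in WT. The mitochondrial share of S1pr1 KO was 0.289 points above WT when S1pr1 KO 2, the library with the highest cardiomyocyte sum, was left out. The remaining S1pr1 KO libraries, at 907, 1724 and 1297 CPM, still had cardiomyocyte sums above every WT library. The part of the cardiomyocyte, ciliated cell and lung defining genes in the mitochondrial share was not tested.

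**Figure D5:**
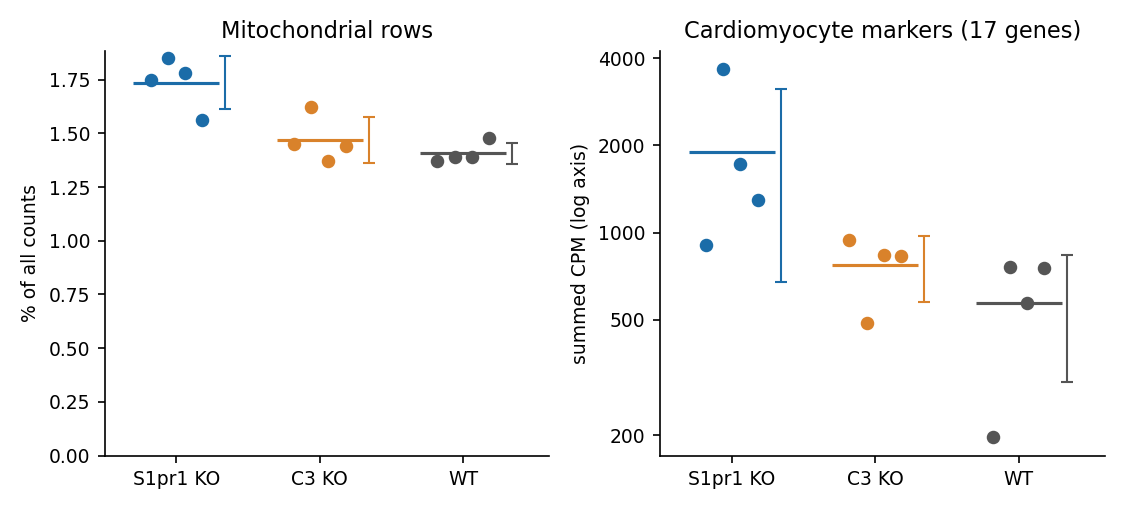
Share of all counts on the 37 mitochondrial rows, in percent on an axis from 0, and summed CPM of 17 cardiomyocyte genes on a log axis; points are libraries, horizontal lines group means and vertical bars SD (n = 4). S1pr1 KO libraries lie above WT libraries in both panels, at 1.56 to 1.85% against 1.37 to 1.48% and at 907 to 3664 CPM against 197 to 759 CPM.

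Other marker lists moved with single libraries. Red cell genes summed to 25233 CPM in C3 KO 3 and to 1006 to 4559 CPM in the other 11 libraries. Skeletal muscle genes summed to 291 CPM in WT 2, to 212 CPM in S1pr1 KO 2 and to 11.2 to 24.7 CPM elsewhere, with 4 of the 12, Myh2, Myh4, Tnnc2 and Pvalb, at 0 in at least 1 library. Brown adipocyte genes summed to 38.1 CPM in S1pr1 KO 2 and to 5.69 to 16.9 CPM elsewhere, with Ucp1 and Elovl3 at 0 in at least 1 library.

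Most nuclear genes of the same complexes had small positive fold changes in S1pr1 KO. Of 79 genes of complexes I to V, 70 had positive fold changes in S1pr1 KO against WT (median 0.09), 79 in S1pr1 KO against C3 KO (median 0.14) and 14 in C3 KO against WT (median -0.05), where the medians over all genes tested were 0.00 each time. Against WT, 1 of the 79 passed in S1pr1 KO in edgeR, beside 1.35% of all genes, and none passed in S1pr1 KO against C3 KO, where 0.0% of all genes did, or in C3 KO against WT. An unadjusted p under 0.05 was found for 16 in S1pr1 KO against WT, beside 18% of all genes, for 40 in S1pr1 KO against C3 KO, beside 12%, and for 7 in C3 KO against WT, beside 11%. DESeq2 called 3 in S1pr1 KO against WT, 5 in S1pr1 KO against C3 KO and 0 in C3 KO against WT, beside 6.32%, 1.57% and 0.85% of all genes. Without S1pr1 KO 2 and C3 KO 4, 64 of the 79 were positive in S1pr1 KO against WT (median 0.06) and 74 in S1pr1 KO against C3 KO (median 0.13).

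The gene that passed was Cox5b, a zinc-binding subunit of complex IV. It stood at 77.8, 80.9, 78.8 and 80.0 CPM in S1pr1 KO, 68.1, 65.5, 64.0 and 71.0 CPM in C3 KO and 68.0, 69.8, 68.1 and 64.9 CPM in WT. All S1pr1 KO libraries lay above all other libraries, by 0.23 on the log2 scale (SE 0.05, edgeR adjusted p = 0.0434) against WT and by 0.24 (SE 0.05, adjusted p = 0.123) against C3 KO. The call against WT was lost without any 1 of 10 libraries, with adjusted p of 0.0561 to 0.127, and without S1pr1 KO 2 and C3 KO 4 together it was 0.0509.

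The lowest p in S1pr1 KO against C3 KO belonged to Ndufa4, a subunit found with complex IV, which stood at 86.6, 96.9, 89.7 and 96.1 CPM in S1pr1 KO against 81.6, 70.6, 71.8 and 74.5 CPM in C3 KO (log2 fold change 0.31, SE 0.06, edgeR adjusted p = 0.115). Ndufa13, of complex I, averaged 54.3 ± 3.30 CPM in S1pr1 KO and 45.7 ± 1.72 CPM in C3 KO (0.25, SE 0.06, 0.153). In C3 KO against WT the lowest p belonged to Ndufb8, also of complex I, at 44.7 ± 2.87 CPM in C3 KO and 51.2 ± 1.43 CPM in WT (-0.20, SE 0.07, 0.355). Atp5d, of ATP synthase, had -0.18 (SE 0.07, 0.368) and Uqcrc1, of complex III, -0.14 (SE 0.06, 0.405) in the same comparison.

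The nuclear genes that copy, transcribe and translate mitochondrial DNA were split about evenly. Of 31 such genes, 16 had positive fold changes in S1pr1 KO against WT (median 0.00), 17 in C3 KO against WT (median 0.01) and 15 between the knockouts (median -0.01), and none passed in edgeR or DESeq2. At an unadjusted p under 0.05 there were 4, 2 and 3 in the same order, beside 18%, 11% and 12% of all genes. Tefm, a mitochondrial transcription elongation factor, averaged 5.47 ± 0.433 CPM in S1pr1 KO, 5.43 ± 0.369 in C3 KO and 4.37 ± 0.280 in WT, with adjusted p of 0.147 and 0.354 against WT. Ppargc1a, a coactivator of mitochondrial biogenesis, stood at 15.4 CPM in S1pr1 KO 2 and at 5.11, 6.43 and 6.32 CPM in the other S1pr1 KO libraries, against 3.81 to 5.90 CPM in WT (0.83, SE 0.31, edgeR adjusted p = 0.18). Lrpprc, which stabilises mitochondrial messenger RNA, stood at 37.4 to 41.7 CPM in C3 KO and 34.2 to 35.9 CPM in WT (0.19, SE 0.06, edgeR adjusted p = 0.353).

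The genes whose pattern over the 12 libraries was most like that of mt-Nd3 or Gm28438 were found by Pearson correlation of log2 CPM among 16197 genes with a mean of at least 1 CPM. For mt-Nd3 the 5 of largest absolute r were Gm7334 (0.94), Gm44321 (-0.94), Rps6-ps4 (0.94), Fmod (0.92) and Ppm1m (0.92). For Gm28438 they were Gm44321 (0.97), Gm7334 (-0.93), Robo1 (0.92), Eef1g (-0.92) and Usp7 (-0.90). The points are 3 groups of libraries, so such an r follows from any difference between WT and both knockouts. Gm7334, a processed pseudogene on chromosome 17, ranged over 0.644 to 0.795 CPM in S1pr1 KO, 0.528 to 0.966 CPM in C3 KO and 1.61 to 2.55 CPM in WT. Gm44321, on chromosome 6, ranged over 1.69 to 1.84, 1.70 to 1.94 and 0.823 to 0.983 CPM in S1pr1 KO, C3 KO and WT.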

How the data were processed

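Whole-lung RNA of 12 samples was extracted with QIAzol after storage in RNAlater, and libraries were made by a commercial provider, per the labels' protocols. The deposited table held whole-number read counts per gene, with names, biotypes and coordinates, and the deposited FPKM values gave the same libraries per length and library size. CASAVA and STAR, with builds GRCm39 and mm39, are named without versions in the submitters' processing notes. Not given in the sources used here are the counting tool, its strand setting and its treatment of multiply matching reads, which may split reads of overlapping, antisense or near-identical genes.

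Counts were tested with edgeR 4.0.16 (R 4.3.3): filterByExpr kept 20229 genes, libraries were scaled by TMM, and a quasi-likelihood model with 3 group means was fitted to 12 libraries (9 residual degrees of freedom), after it had been tested on simulated data. The Benjamini-Hochberg adjustment ran over all genes tested, with a threshold of 0.05. SE is the absolute log2 fold change divided by the square root of F. CPM used TMM-scaled totals. Libraries of a group differed by a chi-square per degree of freedom of at least 12.4, so none was taken as a duplicate. Groups came from the genotype labels, and titles matched the columns to samples. Replicate numbers are order of deposition.

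Transcripts were compared by local alignment (Biopython 1.88; match 2, mismatch -3, gap opening -5, gap extension -2), extended to the ends without gaps. No GRCm39 sequence was used here.

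The genes, gene lists and marker lists were chosen with earlier results of these data known. Named were the 13 mitochondrial protein coding genes, both ribosomal RNAs, chromosome 1 rows with at least 10 reads, the 6 transfer RNAs of at least 1 CPM, and the members of each nuclear list that passed or, where none did, the 3 of lowest p. The low-count transfer RNA rows were named after their values had been seen. Alternatives were DESeq2 1.42.0, limma 3.58.1 (voom with quality weights; log2(FPKM + 1) and log2(FPKM + 0.1), for rows with 0.5 FPKM in 4 libraries), other scalings and filters, fits of only the groups compared, and leaving out libraries.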

Additional observations from a re-analysis of the deposited data

Results flagged for a closer look

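In groups of 4 libraries, a library was marked when its gap to the nearest other library, divided by the range of the group, was above Dixon's 95% critical value. Of 129 groups looked at, 10 were marked, where chance marks about 1 in 20. C3 KO 1 was marked high in 4 of them: mt-Co2 at 26.5 CPM (the other C3 KO libraries at 11.8 to 14.0), mt-Co3 at 15.5 CPM (5.94 to 7.46), Gm29216 at 7.49 CPM (3.57 to 4.22) and the sum of mt-Co2 and Gm28661 at 39.0 CPM (17.6 to 21.3). S1pr1 KO 4 was marked low in mt-Nd5, at 1461 CPM (1881 to 1919.8), and in mt-Te, at 2.88 CPM (4.54 to 4.84). S1pr1 KO 1 was marked high in mt-Co3, at 15.1 CPM (7.69 to 8.55). C3 KO 2 was marked high in mt-Te, at 6.70 CPM (4.03 to 4.37). WT 4 was marked high in mt-Atp8, at 1.10 CPM (0.281 to 0.411), and WT 3 in the share of Gm28661 in its pair, at 37.9% (34.4 to 34.7%).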

How the results depend on the processing

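Low counts limit mt-Nd3, which rests on 13 to 59 reads in a knockout library. The counts of the 44 genes called include mt-Nd3 and Gm28438, whose values against WT chose the members, so nothing is read from those 2. In C3 KO against WT, fitting only the 2 groups left 1 of the 44 genes called, and leaving out single libraries gave 1 to 2 (1 when any single WT or S1pr1 KO library, or C3 KO 2, was left out). In S1pr1 KO against WT, leaving out single libraries gave 1 (without S1pr1 KO 4, which loses mt-Nd3) to 4 genes called (without C3 KO 4, which adds mt-Atp6 and mt-Tp). DESeq2 gave 6 in that comparison, beside 6.32% of all genes. Both limma fits on FPKM gave 4 in each knockout against WT, adding mt-Tg and mt-Tr, which edgeR without a filter did not call. Upper-quartile scaling, voom and a fit of only these 2 groups gave 3 in S1pr1 KO against WT. Over all genes tested, voom called 928 of 20229 in that comparison. Shares over all genes are not given here for upper-quartile scaling, 2-group fits, limma on FPKM or single libraries left out. Nuclear genes of complexes I to V called in S1pr1 KO against WT numbered 0 without a filter, 0 with only the 2 groups, 0 without C3 KO 4 and S1pr1 KO 2 together (beside 2.31% of all genes), 3 with DESeq2 (beside 6.32%), and 0 to 1 without single libraries. In S1pr1 KO against C3 KO they numbered 5 with DESeq2 (beside 1.57% of all genes) and 1 with voom (beside 36 of 20229 genes). Leaving out single libraries moved the log2 fold change of mt-Nd3 in S1pr1 KO against C3 KO over -0.66 to 0.10 (reversed without C3 KO 1) and that of mt-Atp8 in S1pr1 KO against WT over -0.70 to 0.16 (reversed without WT 4). The cause was not tested. The 7 genes outside or partly inside kept positive folds in S1pr1 KO against WT under all 23 alternatives. Differences in mitochondrial share and in the summed pairs moved by less than 1 SD under every alternative run, although the share difference of C3 KO from WT spanned 0.014 to 0.096 points. Leaving out both libraries together was chosen for the mitochondrial share, the summed pairs and the marker lists after the data had been seen. No paired analysis was possible because the labels give no replicate numbers shared between groups.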
